A study of Mus musculus with 10 samples.

Results

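Foxn1, Hoxc13, Msx2, Dlx3, Foxe1, Shh, S100a3, Padi3, Tchh and Dsg4 are regulators and structural genes of the hair matrix, the dividing epithelium at the base of a growing hair follicle. These 10 genes were taken as a named list, drawn up with earlier results of these data known. A probe set carrying the symbol of a single gene was found for 8 of them, 12 probe sets in all, out of 18193 genes and 45101 probe sets on the array. Foxe1 and Dsg4 had no such probe set and are not analysed here.

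The tissue came from subcutaneous islet grafts in nude mice, hybridized to 10 Affymetrix arrays of mouse probes, 1 for each condition. PSI-F grafts were rat islets in a scaffold made of rat plasma together with cultured skin fibroblasts of nu/nu mice, and PSI grafts were the same without fibroblasts; both were placed in streptozotocin-diabetic mice and retrieved on day 1, 3, 7 or 10. Diabetic was a subcutaneous biopsy of a diabetic mouse without a graft, and Control one of a mouse that was neither diabetic nor grafted, both labelled day 0. All recipients were male Swiss nu/nu mice, 6 weeks old per the study's methods. The mouse tissue of grafts and biopsies and the fibroblasts thus share the nude allele of Foxn1, while the islets came from rats. PSI-F differs from PSI in the added cells. The methods selected RNA of the best quality for hybridization and do not say how many mice stand behind an array. No comparison within a day therefore has a replicate, and such differences are given as values without a test. The levels are the deposited log2 values per probe set, and a difference of 1 on this scale is 2-fold.

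In the anagen follicle, matrix cells around the dermal papilla divide, move upward and become the hair shaft and the inner root sheath. FOXN1, a forkhead factor, acts in matrix and precortical cells and is needed for the keratin genes of the shaft. In nude mice a frameshift mutation leaves a FOXN1 protein that does not work, follicles still form and cycle, and the hairs they make bend and break inside the skin, so nude skin passes through hair cycles although it looks bare. A probe set reads the amount of transcript and does not tell a working allele from the nude allele. HOXC13 and DLX3 are homeobox factors of the matrix and the forming shaft, MSX2 is a homeobox factor of matrix and shaft cells, and SHH is a secreted signal made on one side of the matrix that drives its growth. S100A3 is a calcium-binding protein of the hair cuticle, PADI3 converts arginine residues to citrulline, and trichohyalin, the product of Tchh, is a substrate of PADI3 in the inner root sheath and medulla.

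Promoter sequences were taken from RefSeq for mouse build GRCm38.p6, from 250 bases before to 50 bases after the start of transcription. A promoter was listed for 5 of the 10 genes (Foxn1, Msx2, S100a3, Padi3 and Tchh); Hoxc13, Dlx3, Foxe1, Dsg4 and Shh are named only. The 4 promoters below belong to a factor at the head of the list, to a homeobox factor and to a pair of structural genes that moved with them, and are shown because the levels of these genes went up and down together over the arrays. They lie at chr11:78386559-78386858 for Foxn1 (minus strand), chr13:53472731-53473030 for Msx2 (minus strand), chr4:140810599-140810898 for Padi3 (minus strand) and chr3:93442080-93442379 for Tchh (plus strand). Capitals mark matches, on either strand, to ACGC (the core bound by FOXN1), TAATT (a core bound by MSX and DLX homeodomains), CTTTGA (a core bound by LEF1) and TATAAA (the TATA box).
Foxn1: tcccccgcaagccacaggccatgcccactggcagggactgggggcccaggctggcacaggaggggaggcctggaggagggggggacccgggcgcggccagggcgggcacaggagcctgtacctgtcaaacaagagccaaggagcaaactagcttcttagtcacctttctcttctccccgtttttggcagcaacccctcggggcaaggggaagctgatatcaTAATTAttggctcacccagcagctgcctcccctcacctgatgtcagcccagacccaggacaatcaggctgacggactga
Msx2: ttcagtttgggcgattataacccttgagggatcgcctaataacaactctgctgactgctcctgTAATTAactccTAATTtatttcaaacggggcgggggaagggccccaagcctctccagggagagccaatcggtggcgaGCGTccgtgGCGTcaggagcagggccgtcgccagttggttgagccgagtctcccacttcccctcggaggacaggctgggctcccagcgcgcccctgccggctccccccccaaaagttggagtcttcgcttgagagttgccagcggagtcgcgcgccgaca
Padi3: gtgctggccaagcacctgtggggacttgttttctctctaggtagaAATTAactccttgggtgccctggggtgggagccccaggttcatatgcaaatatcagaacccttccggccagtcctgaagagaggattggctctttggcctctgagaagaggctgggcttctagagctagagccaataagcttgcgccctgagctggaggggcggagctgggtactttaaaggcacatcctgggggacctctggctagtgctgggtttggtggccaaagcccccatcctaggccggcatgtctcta
Tchh: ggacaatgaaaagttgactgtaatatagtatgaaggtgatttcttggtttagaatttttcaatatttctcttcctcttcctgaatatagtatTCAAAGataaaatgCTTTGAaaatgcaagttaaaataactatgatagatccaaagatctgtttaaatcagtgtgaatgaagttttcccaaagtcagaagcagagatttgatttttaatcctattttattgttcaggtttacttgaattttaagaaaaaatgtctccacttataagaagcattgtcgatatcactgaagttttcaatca

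The Foxn1 promoter held TAATT and, overlapping it on the other strand, AATTA, starting 29 and 28 bases before the start of transcription, and held none of the other motifs. In the Msx2 promoter, GCGT, which is ACGC on the other strand, began 110 and 101 bases before the start, TAATT began 187 and 176 bases before it, and an AATTA overlapped the first TAATT. Padi3 had 1 AATTA, 205 bases before the start, and Tchh had the LEF1 core in both directions, 158 and 144 bases before it. S100a3 has 4 listed start sites, of which the first, the second and the fourth held ACGC or its complement. The third held TATAAA, 52 bases before the start, and TAATT, 19 bases before it. The fourth also held TAATT and CTTTGA, 29 and 139 bases before the start. These matches are descriptions of letters: of 32851 promoters of this length, 55.31% held ACGC, 27.03% TAATT, 16% CTTTGA and 13.62% TATAAA.

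Array medians lay between 2.82 and 2.94, and levels near or below them are close to background. Of 15 genes of the interfollicular epidermis, 14 stood at least 1 above the median on all 10 arrays, and their log2 summed level was between 13.27 and 13.96 on PSI-F arrays, between 13.49 and 13.98 on PSI arrays, and 13.39 in Diabetic and 14.27 in Control. All 12 skeletal muscle genes also passed that limit on every array, at a log2 summed level of 14.99 to 15.74. The material labelled as subcutaneous thus carried epidermal and muscle transcripts on every array. Ins2, the insulin gene that marks islets, was between 7.70 and 10.60 in the 8 grafts, against 3.13 in Diabetic and 2.27 in Control. In bulk tissue such as this, fewer matrix cells in a sample and less transcript per matrix cell cannot be told apart.

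Foxn1 was low in early grafts, most of all with fibroblasts, and on day 10 both grafts were back near the biopsies. Its level (probe set 1456815_at) was 2.84, 2.24, 4.88 and 6.63 on the PSI-F arrays of days 1, 3, 7 and 10. On the PSI arrays of the same days it was 3.56, 5.18, 3.56 and 6.68. Diabetic stood at 6.84 and Control at 7.18. On days 1 and 3 the PSI-F grafts were thus below the array median, while the PSI graft of day 3 was clearly above it. PSI-F was 1.65-fold lower than PSI on day 1 (a log2 difference of -0.73) and 7.66-fold lower on day 3 (-2.94), 2.49-fold higher on day 7 (1.32), with a difference of -0.05 on day 10. The other Foxn1 probe set, 1450508_at, ran from 2.02 to 5.05 over the 10 arrays and followed the first with a Pearson r of 0.97. Its difference was -1.46 on day 3 and 0.73 on day 7. On day 1 both grafts lay at its low end, at 2.06 in PSI-F and 2.02 in PSI.

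**Figure D1:**
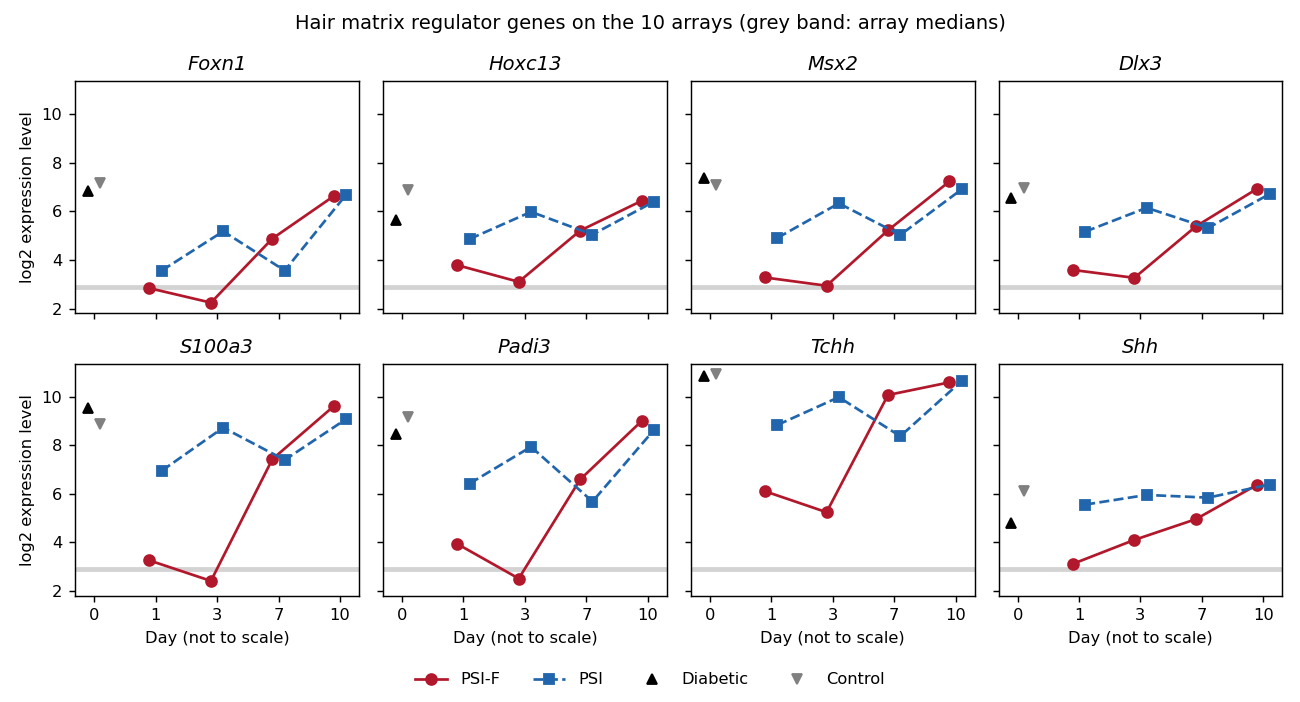
Levels of the 8 genes on the deposited log2 scale (vertical axis) by day (horizontal axis); circles are PSI-F grafts, squares PSI grafts, the upward triangle Diabetic and the downward triangle Control, 1 array per point, and the grey band spans the array medians of 2.82 to 2.94. On day 3, PSI-F lay below PSI for each of the 8 genes, and on day 10 both grafts lay within 0.53 of each other.

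The homeobox factors followed the same course, except that PSI-F and PSI were close on day 7. Their differences on that day were 0.16 for Hoxc13, 0.19 for Msx2 and 0.06 for Dlx3. Hoxc13, which controls hair keratin genes, was at 3.78, 3.10, 5.21 and 6.43 in PSI-F grafts of days 1, 3, 7 and 10, and at 4.86, 5.98, 5.04 and 6.40 in PSI grafts. In the biopsies it was 5.66 in Diabetic and 6.86 in Control. The PSI-F graft of day 3 was the lowest of the 10 arrays, 7.36-fold below its PSI counterpart, and the grafts of day 10 lay between Diabetic and Control.

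Msx2 (1449559_at) stood at 3.28, 2.94, 5.22 and 7.23 in PSI-F grafts and at 4.90, 6.33, 5.03 and 6.91 in PSI grafts of those days. Diabetic had 7.36 and Control 7.10. Its PSI-F minus PSI difference was -1.63 on day 1 and -3.39 on day 3, a 10.5-fold gap, and 0.19 and 0.32 on days 7 and 10. A further Msx2 probe set, 1438351_at, stayed between 0.70 and 1.21, under the medians of all arrays, and differed by only -0.23 on day 3.

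Dlx3 (1450475_at) measured 3.59, 3.26, 5.38 and 6.93 in PSI-F grafts and 5.16, 6.15, 5.32 and 6.71 in PSI grafts, with 6.56 in Diabetic and 6.98 in Control. PSI-F was 2.98-fold lower than PSI on day 1 and 7.38-fold lower on day 3. The dimmer probe set 1422037_at, between 2.68 and 4.26, gave -0.02 and -0.82 on these days. Hoxc13, Msx2 and Dlx3 therefore each had their lowest array in the PSI-F graft of day 3 and the next lowest in that of day 1, as Foxn1 did.

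Shh departed from that course. It was at 3.12, 4.10, 4.95 and 6.38 in PSI-F grafts of days 1, 3, 7 and 10 (1436869_at), going up at each step. The PSI grafts stayed within a narrower span, at 5.56, 5.95, 5.84 and 6.38. Diabetic, at 4.79, was the lowest array outside the PSI-F grafts of days 1 and 3, and Control had 6.11. Its lowest level was that of PSI-F on day 1, where the other 7 genes had theirs on day 3, and on day 7 it was the only one of the 8 genes to be lower in PSI-F than in PSI. The differences were -2.44, -1.85, -0.89 and -0.01 on days 1, 3, 7 and 10. The other Shh probe set, 1427571_at, stayed between 0.45 and 1.09, under the medians of all arrays.

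The Shh pathway was examined through 14 of 15 listed genes that had a probe set. On day 3 their median PSI-F minus PSI difference was 0.00 and 1 of 14 was at least 2-fold lower; on day 1 the median was -0.16 with 2 of 14 lower, on day 7 -0.22 with 2 of 14 lower, and on day 10 0.03 with none. Gli1 and Ptch1, a transcription factor and a receptor that are themselves switched on by hedgehog signalling, had the largest day 3 differences of the list together with Hhip, a membrane protein that binds hedgehog. Ptch1 was at 5.52, 6.37, 6.16 and 7.36 in PSI-F grafts of the 4 days, against 7.18, 7.29, 7.20 and 7.29 in PSI grafts, 7.58 in Diabetic and 7.05 in Control. Gli1 was at 3.06, 3.48, 3.90 and 5.32 in PSI-F grafts, against 4.60, 4.52, 4.66 and 4.93 in PSI grafts, 4.45 in Diabetic and 4.07 in Control. In the PSI-F grafts of days 1, 3 and 7 Gli1 was less than 1 above the array median, so its differences there rest on levels close to background. As for Shh, PSI-F was the lower graft on days 1, 3 and 7 for both genes, and on day 10 Ptch1 differed by 0.07 and Gli1 by 0.39. Over the 10 arrays, which are not replicates, Pearson's r with Shh was 0.88 for Gli1 and 0.80 for Ptch1. Among the other listed genes, Hoxc13 (0.84), Dlx3 (0.83) and S100a3 (0.82) had a higher r with Shh than Ptch1 had. Padi3 (0.78), Msx2 (0.76), Tchh (0.75) and Foxn1 (0.65) had a lower one. Hhip was under the array medians on all 10 arrays, at 1.42 to 2.85.

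**Figure D2:**
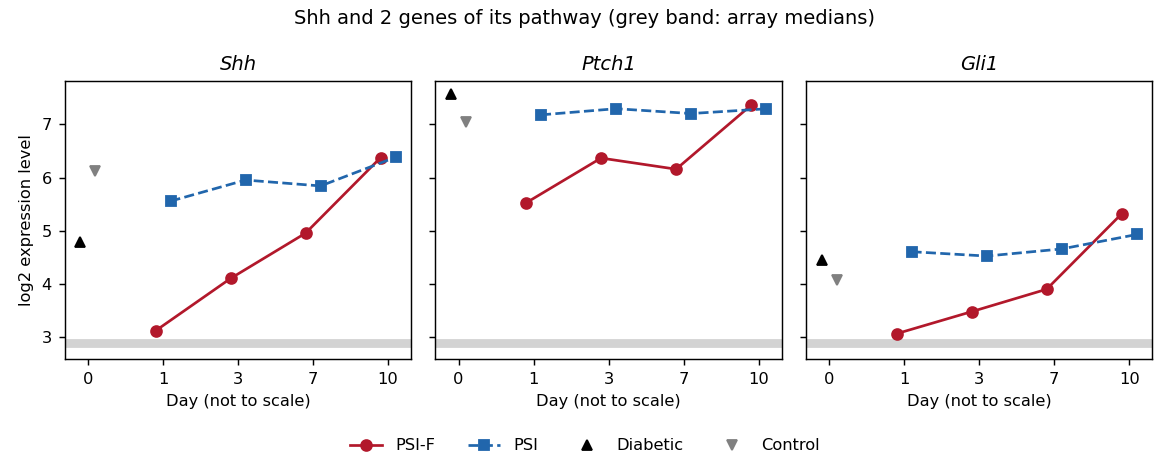
Levels of Shh, Ptch1 and Gli1 on the deposited log2 scale (vertical axis) by day (horizontal axis), with symbols for PSI-F, PSI, Diabetic and Control as in the legend, 1 array per point, and the array medians of 2.82 to 2.94 as a grey band. For each gene PSI-F was under PSI on days 1, 3 and 7, by 0.76 or more on the log2 scale. On those days Gli1 in PSI-F was less than 1 above the array median, as Shh was on day 1.

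The structural genes covered the widest ranges. S100a3 was at 3.26, 2.41, 7.42 and 9.61 in PSI-F grafts of days 1, 3, 7 and 10, and at 6.95, 8.72, 7.39 and 9.08 in PSI grafts. Diabetic had 9.54 and Control 8.88. Both early PSI-F grafts were near or below the array median, whereas each PSI graft was far above it, and PSI-F was 12.9-fold lower on day 1 and 79.3-fold lower on day 3.

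Padi3 followed with 3.94, 2.51, 6.59 and 8.99 in PSI-F grafts and 6.42, 7.93, 5.68 and 8.63 in PSI grafts, and with 8.46 in Diabetic and 9.17 in Control. It was 5.59-fold lower in PSI-F on day 1 and 42.9-fold lower on day 3. Its level in PSI-F on day 3, like those of Foxn1 and S100a3, was under the median of that array. In the PSI-F grafts, 6 of the 8 genes on day 1 and 6 on day 3 were less than 1 above the array median, all but Padi3 and Tchh on day 1 and all but Tchh and Shh on day 3, so the folds of those genes on those days rest on levels close to background.

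Tchh remained above the array medians throughout, with 6.10, 5.24, 10.07 and 10.59 in PSI-F grafts and 8.83, 9.98, 8.37 and 10.65 in PSI grafts. Diabetic was at 10.85 and Control at 10.93. PSI-F was 6.63-fold lower on day 1 and 26.6-fold lower on day 3, then 3.25-fold higher on day 7, the largest difference of the 8 genes on that day. On day 10 the grafts differed by 0.06 on the log2 scale, with PSI-F lower (-0.06).

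Set against each other day by day, PSI-F grafts had lower levels of the whole list than PSI grafts on days 1 and 3 and not on days 7 and 10. On day 1 all 8 genes were lower, by a median of -2.03 (range -3.69 to -0.73), and 4 of them, S100a3, Tchh, Padi3 and Shh, were at least 4-fold lower, the threshold for a call; of all 18193 genes, 0.121% were. On day 3 the median was -3.16 (range -6.31 to -1.85) and 7 of 8 were at least 4-fold lower, all but Shh, against 0.566% of all genes. The median over all genes was -0.02 on day 1 and 0.00 on day 3. On day 7 the median of the 8 was 0.18 (range -0.89 to 1.70), and none was 4-fold apart in either direction, as 0.335% of all genes were. At 2-fold, 2 of 8 were higher in PSI-F on day 7, Foxn1 and Tchh, against 0.956% of all genes. On day 10 the range was -0.06 to 0.53 and none was 4-fold apart, against 0.115% of all genes. Diabetic and Control, which had no graft, differed by -1.32 (Shh) to 0.67 (S100a3), with a median of -0.37 and none of 8 at 4-fold, against 1.3% of all genes. All day 3 differences were thus larger than any difference between the biopsies, and all day 10 differences were smaller in size than the largest of these.

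**Figure D3:**
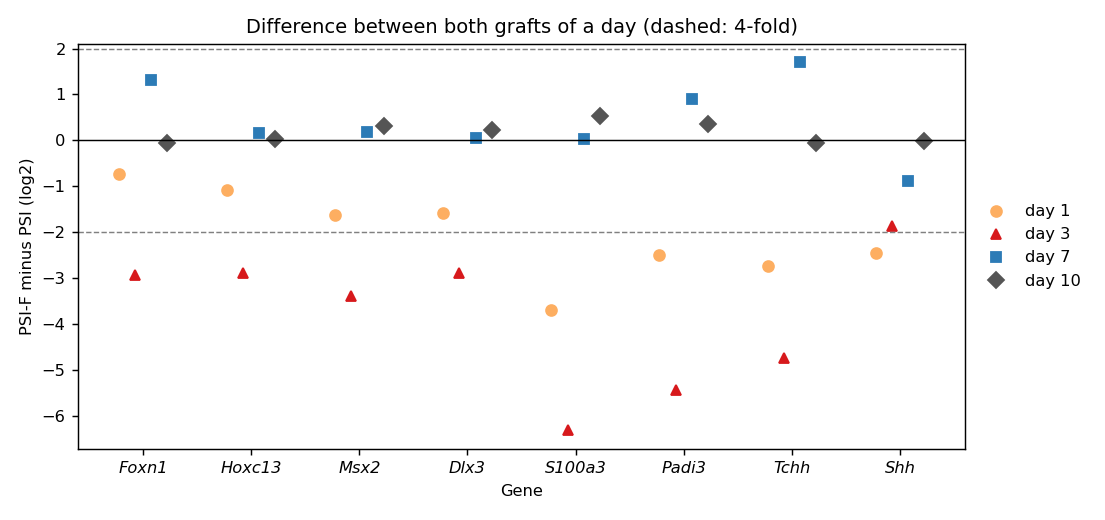
Log2 difference of PSI-F less PSI (vertical axis) for the 8 genes (horizontal axis), with 1 point per day and no replicate; the dashed lines mark 4-fold. Points of day 3 lay lowest for every gene except Shh, whose lowest point was day 1, and points of day 10 lay between -0.06 and 0.53.

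Other cell types were read on the same arrays through marker lists. On day 3 the log2 summed level of 12 skeletal muscle genes was 14.99 in PSI-F and 15.48 in PSI, with a median difference of -0.51 and 1 of 12 at least 4-fold lower. The 9 melanocyte genes with a probe set, of 10 listed, had a day 3 sum of 8.31 in PSI-F and 8.72 in PSI, with a median difference of -0.85 and 4 of 9 at least 2-fold lower. Among them Mlana, a melanosome protein, had 2.55 in PSI-F and 5.27 in PSI, and Dct, an enzyme of pigment synthesis, 4.28 in PSI-F and 5.78 in PSI. The epidermal list, in contrast, summed to 13.96 in PSI-F and 13.58 in PSI, with a median difference of 0.17. Dermal papilla markers were dim: 12 of 14 had a probe set, 3 to 5 of these stood at least 1 above the array median on any array, and their median difference on day 3 was -0.11. For proliferation, 10 of 13 genes of day 1 were 2-fold or more below PSI in the PSI-F graft. Their median was -1.28, with log2 sums of 8.48 in PSI-F and 9.66 in PSI, while the median of day 3 was 0.11, with sums of 9.71 in PSI-F and 9.66 in PSI. The part of these other cells and of cell division in the hair gene differences was not tested.

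The hair shaft keratins and the inner root sheath genes, which make up the products of matrix cells, were set beside the list. On day 3, 11 of 12 shaft keratins (median -4.37) and 9 of 13 inner root sheath genes (median -4.73) were 4-fold or more below PSI in the PSI-F graft. Krt33a, a shaft keratin, had 2.68 in PSI-F and 9.55 in PSI, and Krt28, a keratin of the inner root sheath, 2.02 in PSI-F and 9.17 in PSI. The 8 listed genes had a day 1 median of -2.03, while the inner root sheath genes had one of -1.44. Of these 8, the structural genes S100a3, Tchh and Padi3 were at -3.69, -2.73 and -2.48, and Shh was at -2.44. The transcription factors Msx2, Dlx3, Hoxc13 and Foxn1 were at -1.63, -1.58, -1.08 and -0.73. The shaft keratins had a day 1 median of 0.04 but were split. On that day 5 of 12 were 2-fold or more below PSI in the PSI-F graft, Krt35 the furthest (-3.86), and none was 2-fold above it. Their log2 sums were 7.54 in PSI-F and 8.48 in PSI. Only 5 of the 12 in PSI-F and 7 of the 12 in PSI stood at least 1 above the array median, so their median does not show that the grafts were alike. Day 7 turned round for the shaft keratins, with a median of 2.40 and 7 of 12 past 4-fold in favour of PSI-F. None of the 8 listed genes was past 4-fold there. Most inner root sheath genes were also higher in PSI-F on day 7. Krt72 (2.69) and Krt26 (2.01) were past 4-fold, and Casp14 (-1.52) was the only gene of that list that was lower. On day 10 the medians were 0.23 for the shaft keratins and 0.25 for the inner root sheath genes. These gaps between lists are descriptions of single arrays and have no test.

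Among 18 other follicle transcription factors with a probe set, of 20 listed, the day 3 median was -0.59, with 1 gene at least 4-fold lower and 5 at least 2-fold lower. The largest differences were those of Lef1 (-2.33), the factor through which WNT signals reach hair keratin genes, Dlx2 (-1.52), a relative of Dlx3, and Bnc2 (-1.46), a zinc finger factor. Lef1 was at 3.54, 3.23, 4.65 and 5.72 in PSI-F grafts, against 4.43, 5.56, 4.83 and 5.82 in PSI grafts, 6.18 in Diabetic and 5.73 in Control. Of 18 relatives of the structural genes, S100 proteins and desmosomal and cornified-layer proteins, none was 2-fold lower on day 3 and 2 were higher by 2-fold or more, the median being 0.08. Rptn, a relative of trichohyalin in the cornified layer, had a difference of 1.92, opposite in sign to that of Tchh, S100a4 one of 1.01, opposite to that of S100a3, and S100a1 one of -0.68. The 20 signals of hair growth and regression had a median of -0.13 on day 3, with 1 gene at least 2-fold lower, Wnt5a (-1.24), a WNT ligand, while Bmp4 (-0.90) and Bmp2 (-0.90), ligands of the BMP pathway, came next.

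Relative to Diabetic, both early PSI-F grafts and the PSI grafts of days 1 and 7 had low levels of most of the 8 genes. In PSI-F grafts, 6 of 8 genes were at least 4-fold lower than in Diabetic on day 1, 7 of 8 on day 3, 2 of 8 on day 7 and 0 of 8 on day 10, where 1.14%, 1.28%, 0.813% and 0.429% of all genes were. In PSI grafts the counts were 5 of 8 on day 1, 0 of 8 on day 3, 5 of 8 on day 7 and 0 of 8 on day 10, against 0.797%, 0.324%, 0.819% and 0.368% of all genes. The medians ran -4.04, -4.51, -1.53 and 0.22 over the days in PSI-F and -2.03, -0.67, -2.24 and -0.01 in PSI. All 8 comparisons share the single Diabetic array. PSI-F was thus lowest on days 1 and 3 and still low on day 7, when 5 of 8 genes were at least 2-fold under Diabetic. Over all 8 grafts together, 12.3% of all pairs of gene and graft were at least 2-fold from Diabetic in either direction. PSI was low on day 1, near Diabetic on day 3, low again on day 7 and near Diabetic on day 10. Each of the 8 genes was lower in the PSI graft of day 7 than in that of day 3, with a median of -1.31, and each was higher in the PSI-F graft of day 7 than in that of day 3, with a median of 2.46.

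Foxn1 itself differed from Diabetic by -4.60 on the log2 scale in the PSI-F graft of day 3 and by -3.28 in the PSI graft of day 7. Its level was below the array median in that PSI-F graft and less than 1 above it in that PSI graft, so the size of these differences is uncertain. Shh was the exception in this comparison, being higher than in Diabetic on 6 of 8 grafts, on day 10 by 1.58 in PSI-F and by 1.59 in PSI. Its level in Diabetic was 2.50-fold below that in Control, and against Control Shh was 0.26 higher in PSI-F of day 10 and 0.27 higher in PSI of day 10. On day 7 of PSI the shaft keratins were further down than the regulators, with a median of -3.44 relative to Diabetic and 10 of 12 genes at least 4-fold lower, and on day 1 of PSI their median was -4.07 with 11 of 12. Interfollicular epidermal genes had medians between -0.42 and 0.54 in the 8 grafts, with 0 of 15 genes 4-fold lower in any. These values rest on Diabetic, where the log2 summed level of the list was 13.39, against 14.27 in Control. In the PSI-F graft of day 7 every gene of the list was below its level in Control. There Ivl was at 6.88, against 7.42 in Diabetic and 9.23 in Control, and Trp63 at 6.39, against 7.55 and 8.78.

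**Figure D4:**
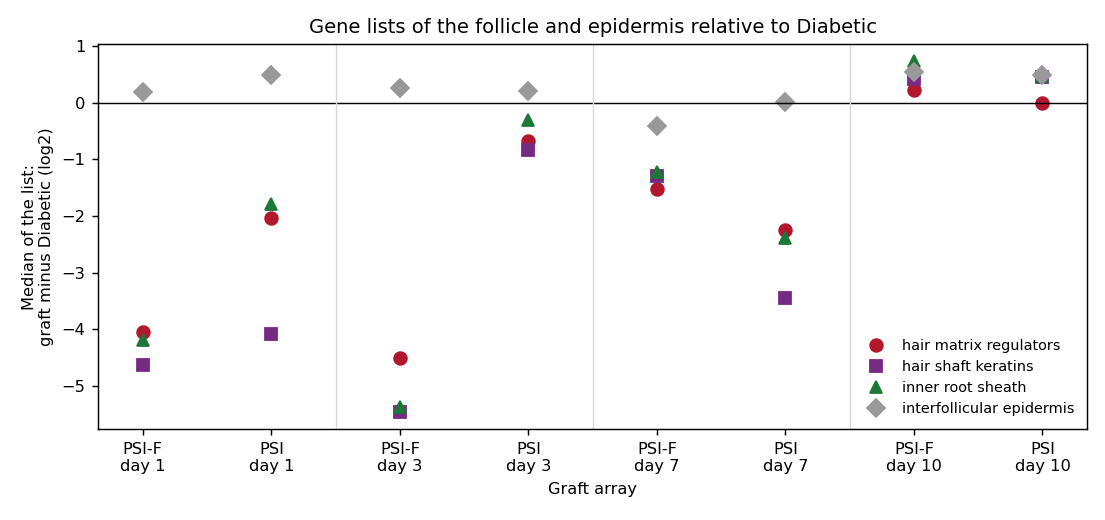
Median log2 difference from Diabetic (vertical axis) on each graft array (horizontal axis), with 1 array per condition. Shown are the 8 listed genes (hair matrix regulators in the legend), 12 hair shaft keratins, 13 inner root sheath genes and 15 epidermal genes. The 3 follicle lists were lowest in PSI-F of day 3, at -4.51, -5.45 and -5.38, while the epidermal list stayed between -0.42 and 0.54. Diabetic had a lower epidermal level than Control, which is not shown as a baseline.

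With days standing in for replicates, limma tested 3 comparisons over all 45037 non-control probe sets, and none of the 12 probe sets passed an adjusted p of 0.05 in any of them. Between PSI-F and PSI over the 4 days, with day as a block, limma called no probe set at all (0%), and 2749 had an unadjusted p under 0.05. Of the 12 probe sets, 11 were lower in PSI-F and 2 had an unadjusted p under 0.05. Shh had the smallest, at a log2 difference of -1.30 with a standard error of 0.35 and a limma adjusted p of 0.751, and S100a3 the next, at -2.36 with a standard error of 1.01 and the same adjusted p. Foxn1 had -0.60 ± 0.56 (SE, 4 days) and did not pass either. The Shh difference was below zero on all 4 days, that of Foxn1 on 3 of 4. Without day 3, 4 of the 12 probe sets were higher in PSI-F.

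Late grafts of days 7 and 10 had higher values than early grafts of days 1 and 3 for all 12 probe sets, by 0.20 to 3.04, with graft kind as a block, and none passed. Limma called 189 probe sets of the array (0.42%) here. S100a3 came nearest, at 3.04 ± 1.08 (SE, 8 grafts) with a limma adjusted p of 0.240, Foxn1 had 1.98 ± 0.81 with an adjusted p of 0.295 and its other probe set 1.30 ± 0.56 with 0.323; 8 of the 12 had an unadjusted p under 0.05. Of 27 spiked-in poly-A control probe sets, which measure the handling of a sample, 12 were brighter on all 4 arrays of days 7 and 10 than on the other 6 arrays and none was dimmer on all 4; their part in this comparison was not tested. Of the follicle lists, the 12 shaft keratins and 13 inner root sheath genes had no call either. Their median log2 differences were 2.48 and 2.22, beside 1.86 for the 8 listed genes and 0.01 for all probe sets. Of the 20 signals of the growth and regression list 1 passed, Nog, a BMP inhibitor, at -0.84 with a limma adjusted p of 0.042. Nog was named because it passed, and no gene of the other lists did. Its levels lay between 2.14 and 3.30 over the 10 arrays, near or below the array medians, so this difference rests on levels close to background.

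Between the 8 grafts and the 2 biopsies, 11 of 12 probe sets were lower in grafts, 1 had an unadjusted p under 0.05 and none passed, where limma called 975 probe sets (2.16%). Foxn1 differed by -2.56 ± 1.05 (SE, 10 arrays) with a limma adjusted p of 0.231. Of all the lists read here 5 genes passed, and they are named for that reason. They were 1 of 18 other follicle transcription factors and 1 of 20 growth and regression signals. The rest were 1 of 12 dermal papilla genes, 1 of 12 fibroblast genes and 1 of 11 islet genes. No gene of the remaining lists passed. Lower in grafts by limma were Hr (-1.10, adjusted p 0.039), a corepressor needed for the hair cycle, and Bmp2 (-1.51, adjusted p 0.030). Higher in grafts by limma were Sox18 (2.23, adjusted p 0.025), a transcription factor on the dermal papilla list, Col3a1 (adjusted p 0.034), a collagen gene on the fibroblast list, and Ins2 (6.80, adjusted p 0.0020). The dermal papilla list had a median log2 difference of 0.05, so Sox18 does not stand for that list. The test takes grafts of different days as replicates, so the course over days counts as error, and diabetes, which separates the biopsies, does as well.

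**Figure D5:**
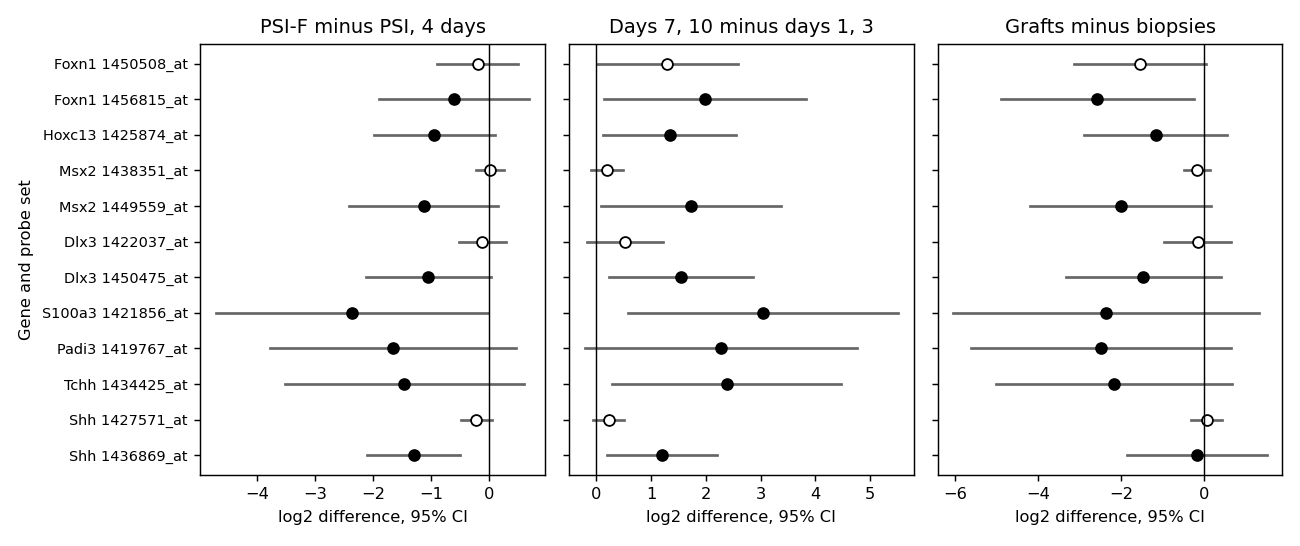
Log2 differences (horizontal axes) with 95% confidence intervals from limma for the 12 probe sets (rows) in the 3 comparisons; filled points are the probe sets that stand for their gene and open points the others. All 12 lay above zero for late minus early grafts, and none passed an adjusted p of 0.05 in any comparison.

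Among the 8 genes, Pearson's r over the 10 arrays ran from 0.65 to 0.99 over 28 pairs, with a median of 0.95; the arrays share the day and graft effects above, so r is a description. Msx2 and Dlx3 were the closest pair, at 0.99, and the pair of Foxn1 and Shh the least alike. Ranked by r with Foxn1 among 6688 genes whose highest level was at least 6, Msx2 was at place 29 (0.96), Padi3 at 43 (0.95), Dlx3 at 51 (0.95), Hoxc13 at 90 (0.93), Tchh at 95 (0.92), S100a3 at 162 (0.89) and Shh at 766 (0.65). The 10 genes whose levels were most like Foxn1 were Them4 (0.992), Krt72 (0.989), St14 (0.987), Hephl1 (0.983), Cyria (0.980), Sptssb (0.979), Dapl1 (0.978), Cryba4 (0.977), Serpinb11 (0.975) and Krt36 (0.974). Krt72 is a keratin of the inner root sheath, Krt36 a hair keratin, St14 the membrane protease matriptase and Them4 a thioesterase. Them4 was at 3.95, 3.78, 5.14 and 5.90 in PSI-F grafts of days 1, 3, 7 and 10, against 4.45, 5.16, 4.53 and 5.87 in PSI grafts, 6.18 in Diabetic and 6.52 in Control. As for Foxn1, both biopsies were its highest arrays, the PSI-F graft of day 3 its lowest, and the PSI grafts of days 1 and 7 lay under that of day 3.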

How the data were processed

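Total RNA of 10 samples was read on Affymetrix arrays, with a single array for each condition. The authors deposited RMA output on the log2 scale, that is, background-corrected and quantile-normalized probe signals summarised for each probe set; R 2.15.0 and affy 1.36.0 are the tools given in the submitters' notes. Quantile normalization gives arrays the same overall distribution, so a shift of all genes cannot be seen, and the number of arrays limits the precision.

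Probe sets were named from GEO's platform annotation: 34958 had 1 symbol, 932 several and 9211 none. Control probe sets (64) were left out. A gene was represented by its probe set of highest mean, and all single-symbol probe sets of the list were also read. Within a day, differences of at least 4-fold were counted. limma 3.58.1 (R 4.3.3, lmFit, eBayes, Benjamini-Hochberg over 45037 probe sets) was run over days and was also tried on simulated data. Its p-values rest on grafts of different days, not on separate animals of 1 condition. Python 3.11.15 with pandas 2.3.3 did the rest.

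The genes and lists were chosen with earlier results of these data known. Named are the 10 listed genes, of each pathway list the 3 with the largest day 3 difference (of the keratin lists the first only), markers by list, and the 10 genes with the highest Pearson r with Foxn1. Alternatives were a 2-fold threshold, the mean of all probe sets, cyclic loess, an intensity trend, a filter on dim probe sets, other blocks, Control as baseline, Spearman's rho and leaving out arrays.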

Additional observations from a re-analysis of the deposited data

Results flagged for a closer look

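The PSI-F minus PSI difference went in opposite directions on different days, by at least 2-fold each way, for 2 of the 8 genes. Foxn1 was lower in PSI-F on day 3 (-2.94) and higher on day 7 (1.32), so that the day 7 difference exceeded that of day 3 by 4.25 on the log2 scale. Tchh was lower in PSI-F on day 1 (-2.73) and day 3 (-4.74) and higher on day 7 (1.70), gaps of 4.43 between days 7 and 1 and of 6.43 between days 7 and 3. With 1 array per graft and day, none of these differences between days was tested.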

How the results depend on the processing

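At a 2-fold threshold, 7 of the 8 genes were apart between PSI-F and PSI on day 1 (4 at 4-fold), 2 on day 7 (0) and 2 between Diabetic and Control (0), where 1.13%, 1.78% and 11% of all genes were. Against Diabetic, 38 of the 64 pairs of gene and graft were apart (25), and 12.3% of all such pairs. Averaging every probe set of a gene, which brings in the dim probe sets of Msx2 and Shh, gave a median PSI-F minus PSI difference of -1.23 on day 1 and -2.54 on day 3, and for Foxn1 on day 3 one of -2.20. With that averaging, 3 of the 8 genes were 4-fold apart on day 1 (4 before) and 5 on day 3 (7 before). Against Diabetic 20 of the 64 pairs were then 4-fold apart, and 22 with cyclic loess (25 before). By Spearman's rho, 3 of the 10 genes most like Foxn1 remained among the closest 10. In limma none of the 12 probe sets was called under any alternative. Directions of single probe sets did change: for PSI-F against PSI 1 of the 12 was higher in PSI-F, but 4 without day 3 and 0 without day 7, without day 10 or with cyclic loess, for grafts against biopsies 1 of the 12 was higher in grafts, but 3 without Control, 2 without PSI-F of day 1 and 0 without Diabetic, and for late against early grafts all 12 were higher, but 11 without day 10. The calls over the array varied: for PSI-F against PSI 2 without day 1 and 0 otherwise, for late against early grafts 1 without day 1, 95 without day 10, 470 without day 3 and 407 without the graft block, against 189, and for grafts against biopsies 15 without Diabetic, 4371 without Control, 536 without PSI of day 3, 569 without PSI of day 7 and 642 without PSI of day 1, against 975. The PSI-F against PSI comparison pairs both grafts of a day through its day block, and without that block it also had 0 calls. Signal near background limits the PSI-F levels of 6 of the 8 genes on day 1 and of 6 on day 3.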
